A study of Mus musculus with 6 samples.

Results

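The carbonic anhydrase genes Car2, Car3, Car4, Car5b, Car6, Car8, Car9, Car12, Car13 and Car14 were followed in C2C12 myoblasts whose PARP2 had been silenced. These 10 genes, out of 19938 measured, were chosen by name with earlier results of the same arrays in view, and each was read from the brightest probe set that names only that gene. Each had exactly 1 such probe set. Because the genes were selected on the same comparison between the lines, their values are given as a description, without p-values.

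C2C12 is an established line of mouse skeletal muscle myoblasts. The silenced cells carried a lentiviral shRNA specific for PARP2 (shPARP2), and the cells they were set against carried a scrambled shRNA (scPARP2). Both were grown in DMEM with fetal calf serum under puromycin selection, so lentiviral delivery and the antibiotic were shared. Each condition was 1 transduced line, and the effect of silencing and a difference between the lines cannot be told apart. Total RNA of 3 samples per line was hybridized to Affymetrix Mouse Gene 1.0 ST arrays, 1 sample to an array. The values are log2 expression values, on which a difference of 1 is a doubling of signal.

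Carbonic anhydrases are zinc enzymes that interconvert carbon dioxide and water with bicarbonate and a proton. The isoforms differ in activity and in location, and lie in the cytosol, in mitochondria, on the cell surface or outside the cell. In muscle they speed the removal of carbon dioxide and help to buffer the protons that leave with lactate. A few family members have lost the zinc-binding residues and serve other roles.

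The silenced gene was lower in the cells that received its shRNA. Parp2 read 7.86, 8.14 and 7.91 in shPARP2 cells, against 8.94, 9.13 and 9.05 in scPARP2 cells, a log2 difference of -1.07 (standard error 0.10, limma adjusted p = 0.00103). A gene is called higher or lower at an adjusted p under 0.05 over all probe sets. The Parp2 arrays of the lines do not overlap, and 47.6% of the scPARP2 signal was left. Array medians lay between 7.04 and 7.18, and the shPARP2 arrays varied more among themselves than the scPARP2 arrays, the median over probe sets of the SD being 0.142 in shPARP2 and 0.0753 in scPARP2 cells. Whether the 3 samples of a line came from separate cultures is not stated in any source used here, and a p-value then covers only the spread of those samples, possibly technical.

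Of the 8 genes listed as myoblast markers, 5 were higher in shPARP2 cells, 1 was lower and 2 did not pass in limma. Over all 19938 genes, the shares were 12.4% higher and 11.6% lower, which also belong beside the further marker lists below. The mean log2 level of the list was 10.02 to 10.34 on the shPARP2 arrays and 9.84 to 9.90 on the scPARP2 arrays. Myf5 (log2 difference 1.13, adjusted p = 0.00156) and Myog (0.83, adjusted p = 0.00153), both myogenic transcription factors, were among the higher ones, and Vcam1, an adhesion molecule, was the lower one at -0.76. Myod1, which encodes a further myogenic transcription factor, read 9.79, 10.19 and 8.89 in shPARP2 cells, against 9.79, 9.85 and 9.82 in scPARP2 cells. Its lines overlap, and it did not pass (adjusted p = 0.753). What part these markers have in the carbonic anhydrase values was not tested. In such bulk RNA, fewer cells of a type and less RNA per cell cannot be told apart.

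Hypoxia-inducible factors bind the short core sequences ACGTG and GCGTG, and Car9 and Car12 are textbook genes induced by low oxygen. The promoters of both are shown, 250 bases before to 50 bases after the gene start in RefSeq on GRCm38.p6. Both genes were called higher in shPARP2 cells, though the Car12 call was lost in some of the alternative runs given below. The pair was picked for these calls and because only the Car9 window holds a core sequence. Capitals mark a match on either strand. The Car9 window lies at chr4:43506776-43507075 on the plus strand and that of Car12 at chr9:66713436-66713735 on the plus strand.
Car9: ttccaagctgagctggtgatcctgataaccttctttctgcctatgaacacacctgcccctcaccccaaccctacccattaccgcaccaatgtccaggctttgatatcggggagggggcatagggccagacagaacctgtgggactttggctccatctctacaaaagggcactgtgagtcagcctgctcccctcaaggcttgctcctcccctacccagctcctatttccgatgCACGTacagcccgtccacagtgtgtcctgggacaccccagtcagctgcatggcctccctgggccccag
Car12: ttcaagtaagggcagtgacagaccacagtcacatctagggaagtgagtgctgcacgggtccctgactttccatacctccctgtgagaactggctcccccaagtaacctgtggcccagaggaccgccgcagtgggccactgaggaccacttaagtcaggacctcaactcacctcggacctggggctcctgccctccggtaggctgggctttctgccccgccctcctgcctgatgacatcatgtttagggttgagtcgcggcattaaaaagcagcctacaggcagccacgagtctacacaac

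The Car9 window holds 1 ACGTG, read on the opposite strand as CACGT, whose first printed base lies 18 bases before the gene start. The Car12 window holds 0 matches to either core. The table gave promoters for 6 of the 10 genes, namely Car4, Car5b, Car6, Car9, Car12 and Car14, and none for Car2, Car3, Car8 and Car13. Of these 6 windows, 5 hold a match, and 4 hold ACGTG, namely those of Car4, Car6, Car9 and Car14. Car4 and Car14 had log2 differences of 0.04 and -0.01 and were not called. Over the 32544 promoters of the table, 19.7% hold ACGTG, 32.6% hold GCGTG and 44.0% hold either. The Car5b window holds 5 GCGTG, and the Car6 window holds 2 overlapping ACGTG, one on each strand, beside 1 GCGTG. A match is a description of the letters and says nothing of whether a factor binds there.

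The largest differences between the lines among the 10 genes were those of the cytosolic Car3 and Car2, which lay in opposite directions. Car3 encodes an isoform of low hydratase activity that is abundant in slow muscle fibres, fat and liver. Its probe set (10490913) read 13.70, 13.78 and 13.60 in shPARP2 cells, against 9.48, 9.75 and 9.71 in scPARP2 cells. The shPARP2 arrays all lie far above the scPARP2 arrays, and the spread within either line is small beside the gap. The means were 13.69 ± 0.09 in shPARP2 and 9.65 ± 0.14 in scPARP2 cells (SD, n = 3 each), a log2 difference of 4.05 (standard error 0.10) or 16.5-fold. Of the 19938 genes, 1 had a log2 difference this large, which is Car3 itself.

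Car2 encodes the cytosolic isoform of very high activity. Its probe set (10490923) read 6.91, 7.56 and 6.57 in shPARP2 cells, against 9.23, 9.46 and 9.32 in scPARP2 cells. The lines do not overlap, and the shPARP2 arrays are the more spread, with replicate 2 the highest of them. The means were 7.01 ± 0.50 in shPARP2 and 9.34 ± 0.11 in scPARP2 cells (SD, n = 3 each), a log2 difference of -2.32 (standard error 0.24), or a signal 5.01-fold higher in scPARP2 cells. Counting Car2, 48 genes were at least this much lower.

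Car13 encodes a further cytosolic isoform. Its probe set (10490903) read 11.17, 11.41 and 10.95 in shPARP2 cells, against 11.63, 11.72 and 11.66 in scPARP2 cells. All 3 shPARP2 arrays were lower, and the gap between the nearest arrays is small. The log2 difference was -0.49 (standard error 0.12), and the call of a lower level was lost when each array was centred on its median. It was also lost on leaving out any 1 array other than shPARP2 replicate 2, with log2 differences of -0.61 to -0.38 over all 6 omissions.

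Car8 encodes a carbonic anhydrase-related protein without catalytic activity that binds the inositol trisphosphate receptor. Its probe set (10511429) read 7.98, 8.34 and 7.81 in shPARP2 cells, against 9.84, 9.82 and 9.76 in scPARP2 cells. The lines do not overlap, and the scPARP2 arrays lie close together. The log2 difference was -1.76 (standard error 0.14), a signal 3.39-fold higher in scPARP2 cells. As for Car2, shPARP2 replicate 2 was the highest and replicate 3 the lowest of the silenced arrays.

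**Figure D1:**
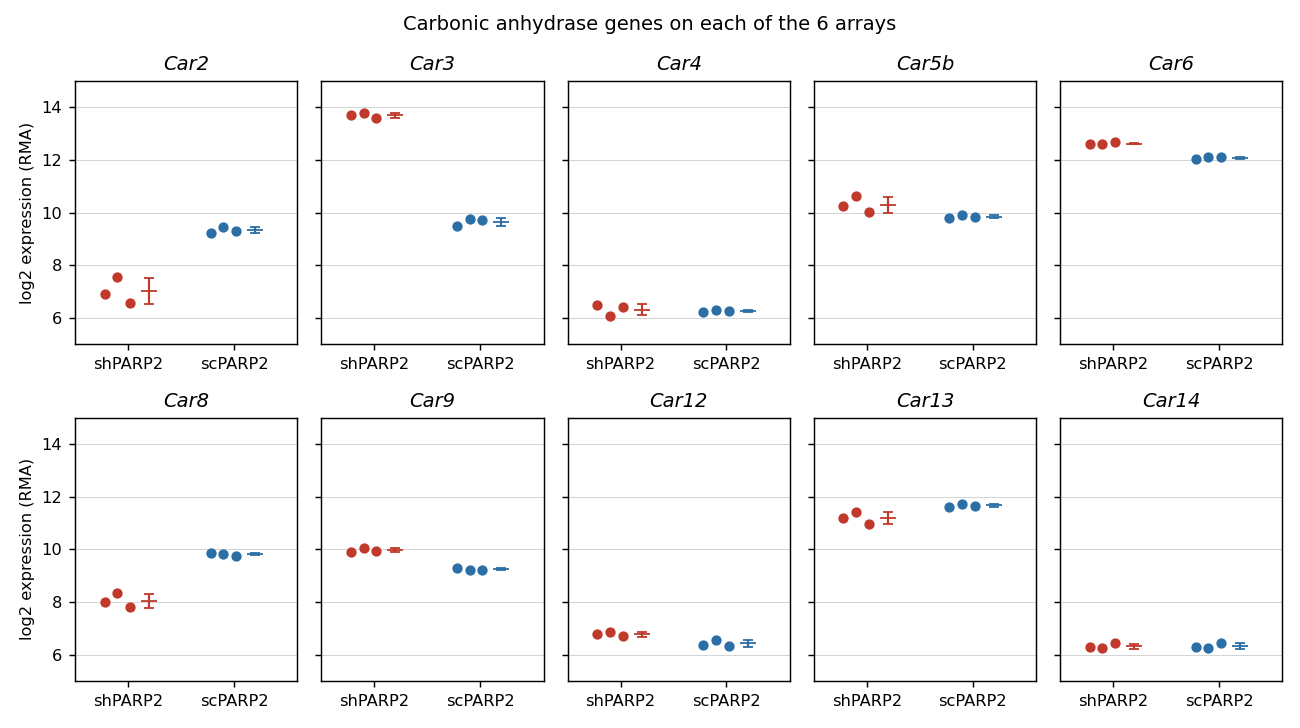
Log2 expression of the 10 carbonic anhydrase genes on each array, with 1 panel per gene. Points are the 3 shPARP2 and the 3 scPARP2 arrays, bars are means with SD, and Car3, at 13.69 in shPARP2 and 9.65 in scPARP2 cells, stands above the other panels in the gap between lines.

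The isoforms outside the cytosol had log2 differences between -0.01 and 0.71. Car9 encodes a transmembrane enzyme whose active site faces the outside of the cell. Its probe set (10504337) read 9.90, 10.04 and 9.94 in shPARP2 cells, against 9.29, 9.23 and 9.23 in scPARP2 cells. The lines do not overlap, and the log2 difference was 0.71 (standard error 0.07), or 1.63-fold. In RefSeq the Car9 gene overlaps Tpm2, which encodes a tropomyosin and averaged 11.35 in shPARP2 and 10.57 in scPARP2 cells, a log2 difference of 0.78 (standard error 0.10, limma adjusted p = 0.00346). It also overlaps Arhgef39, at -0.10 (adjusted p = 0.485). Whether signal from these genes reaches the Car9 probe set was not tested.

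Car12, a second transmembrane enzyme with an outward active site, read 6.77, 6.87 and 6.69 in shPARP2 cells, against 6.37, 6.57 and 6.34 in scPARP2 cells (probe set 10586591). The lines are apart by a narrow margin, between 6.69 in shPARP2 and 6.57 in scPARP2 cells. The log2 difference was 0.35 (standard error 0.09), and the level, at percentile 39.5 of all probe sets, is dim. The call of a higher level was lost after quantile normalization, after centring, and without shPARP2 replicate 1 or 2 or scPARP2 replicate 1 or 3, where the log2 difference over all omissions ran between 0.30 and 0.42.

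Car14, a further transmembrane enzyme, did not differ beyond the spread of its arrays. Its probe set (10500283) read 6.28, 6.25 and 6.43 in shPARP2 cells, against 6.28, 6.26 and 6.46 in scPARP2 cells. The arrays overlap, and the log2 difference was -0.01 (standard error 0.09). In RefSeq, Car14 overlaps Aph1a, a subunit of gamma-secretase, which was lower in shPARP2 cells (log2 difference -0.62, limma adjusted p = 0.00222).

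Car4 is anchored to the outer face of the plasma membrane by a glycolipid. Its probe set (10379866) read 6.48, 6.06 and 6.41 in shPARP2 cells, against 6.24, 6.32 and 6.28 in scPARP2 cells. The shPARP2 arrays lie on both sides of the scPARP2 arrays, and the log2 difference was 0.04 (standard error 0.12). The mean level lay at percentile 33.1 of all probe sets for Car4 and 33.8 for Car14, both below the median.

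Car6 encodes the secreted isoform of saliva, of which an intracellular form induced by stress is known in mouse cells. Its probe set (10518751) read 12.61, 12.60 and 12.67 in shPARP2 cells, against 12.04, 12.12 and 12.10 in scPARP2 cells. The arrays of each line lie within a narrow band, and the bands are apart. The log2 difference was 0.54 (standard error 0.06), or 1.45-fold. Its mean level lay at percentile 97.4 of all probe sets, a rank that depends on the sequence of the probes as well as on the RNA.

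Car5b encodes a mitochondrial isoform, which supplies bicarbonate to carboxylases of the matrix. Its probe set (10607738) read 10.24, 10.61 and 10.02 in shPARP2 cells, against 9.80, 9.92 and 9.82 in scPARP2 cells. The 3 shPARP2 arrays lay above the scPARP2 arrays, and the log2 difference was 0.44 (standard error 0.15), which was not past the threshold. Without shPARP2 replicate 2 the log2 difference was 0.28 and without shPARP2 replicate 3 it was 0.58, the lowest and highest over the 6 omissions. It passed without shPARP2 replicate 3 and with array weights, and in no other alternative run. In RefSeq, Car5b overlaps the long non-coding RNA gene Gm38561, for which no value was read.

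Over the 10 genes, 4 were called higher in shPARP2 cells (Car3, Car6, Car9 and Car12), 3 were called lower (Car2, Car8 and Car13) and 3 were not past the threshold (Car4, Car5b and Car14), by limma over 35556 probe sets. Over all 19938 genes, 12.4% were called higher and 11.6% lower. The arrays of the lines did not overlap in 8 of the 10 genes, 5 higher and 3 lower, while they did not overlap in 42.1% of all genes. As the genes were chosen on this comparison, nothing is read from these shares. The median log2 difference was 0.19 for the 10 genes and -0.02 for all genes, and 3 of the 10 changed at least 2-fold, against 3.54% of all genes.

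**Figure D2:**
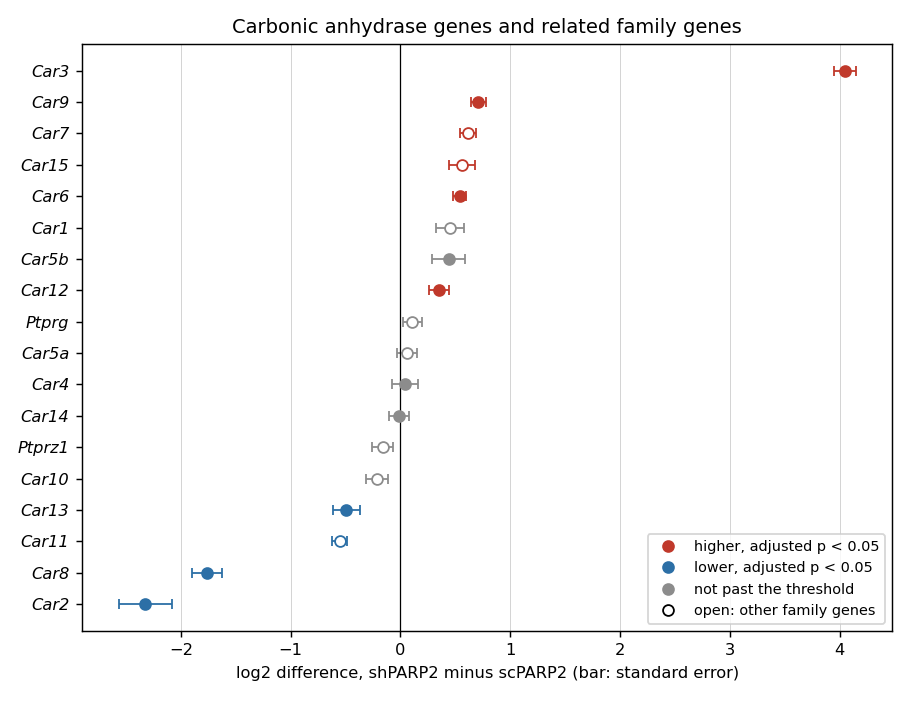
Log2 difference, shPARP2 minus scPARP2, for the 10 genes and for the other carbonic anhydrase family genes measured. Points are the differences with their standard errors, and Car3 at 4.05 and Car2 at -2.32 lie at the ends.

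The other measured members of the family were chosen as a list, with earlier results of these arrays known. Tested with limma over all probe sets, they had log2 differences between -0.55 and 0.62. Of 8 genes, 2 were higher in shPARP2 cells, 1 was lower and 5 did not pass, with a median of 0.08. Car7, a cytosolic isoform, averaged 7.95 ± 0.09 in shPARP2 and 7.33 ± 0.06 in scPARP2 cells (SD, n = 3 each), a log2 difference of 0.62 (adjusted p = 0.00282). Car15, which is anchored to the membrane by a glycolipid, had a log2 difference of 0.56 (adjusted p = 0.0222), and the call was lost without scPARP2 replicate 1, 2 or 3, at adjusted p = 0.0544, 0.0854 and 0.0769. Car11, a related protein without catalytic activity, averaged 8.79 ± 0.04 in shPARP2 and 9.34 ± 0.07 in scPARP2 cells (SD, n = 3 each), a log2 difference of -0.55 (adjusted p = 0.00269). The red cell isoform Car1 averaged 6.98 in shPARP2 and 6.53 in scPARP2 cells, with a log2 difference of 0.45 that did not pass (adjusted p = 0.0526). It passed after the filter on dim probe sets (adjusted p = 0.0254) and with a trended, robust variance (adjusted p = 0.0436). Car5a, Car10, Ptprg and Ptprz1 had log2 differences between -0.21 and 0.11, and none passed. Ptprg and Ptprz1 encode receptor phosphatases with a domain like that of a carbonic anhydrase.

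Car3 and Car2, the genes with the largest difference in each direction among the 10, are neighbours. Car13, Car1, Car3 and Car2 are 4 consecutive coding genes in RefSeq, with log2 differences of -0.49, 0.45, 4.05 and -2.32. Car1 did not pass the test. In RefSeq, Car3 also overlaps the long non-coding RNA gene Gm41999, for which no value was read. Whether signal from Gm41999 reaches the Car3 probe set was not tested. The 6 flanking genes shown were chosen after their values were seen. On the Car13 side, Lrrcc1 had a log2 difference of -0.59 (limma adjusted p = 0.0147), E2f5, a cell cycle transcription factor, one of -0.68 (adjusted p = 0.0132) and Rbis one of -0.17 (adjusted p = 0.681). The Lrrcc1 call was lost without any 1 scPARP2 array and the E2f5 call without scPARP2 replicate 1 or 2, at adjusted p-values between 0.0514 and 0.0653. On the Car2 side, Gm9733 (-0.18), Gm5150 (-0.28) and Ythdf3 (-0.12) did not pass, with adjusted p-values between 0.0644 and 0.338, and Gm5150 passed with array weights (adjusted p = 0.0324).

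**Figure D3:**
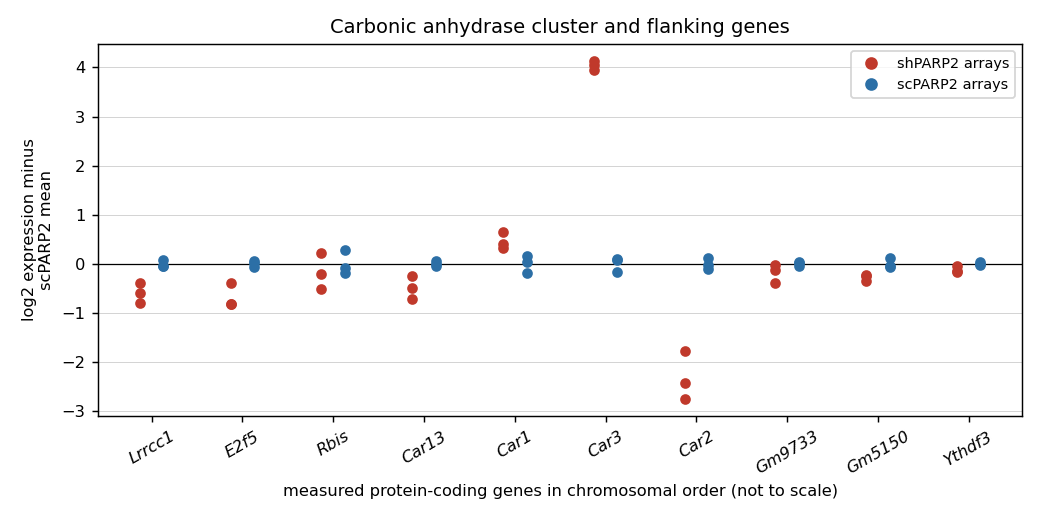
Log2 expression on each shPARP2 and scPARP2 array, minus the scPARP2 mean of the gene, for the genes around Car3 in chromosomal order and without distances. The shPARP2 points average 4.05 for Car3, 0.45 for Car1 and -2.32 for Car2, and between -0.68 and -0.12 for the flanking genes.

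Slow muscle fibres are rich in Car3. Of 10 other slow muscle fibre genes, 4 were higher in shPARP2 cells, 0 were lower (0 also at an unadjusted p under 0.05) and 6 did not pass in limma, with a median log2 difference of 0.19. The higher ones were the slow troponin subunits Tnnc1 (log2 difference 1.32, adjusted p = 0.000669), Tnni1 (1.16, adjusted p = 0.000322) and Tnnt1 (1.18, adjusted p = 0.00533) and the oxygen-binding protein Mb (0.95, adjusted p = 0.0224). The call of Mb was lost without shPARP2 replicate 1 or any 1 scPARP2 array. The other 6 genes had log2 differences between -0.10 and 0.20. They were the slow myosin genes Myh7 (0.05), Myl2 (-0.01) and Myl3 (-0.10), whose arrays overlap between the lines, and Myoz2 (0.09), Csrp3 (0.19) and Atp2a2 (0.20).

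Car3 is also abundant in fat, and none of the 7 measured adipocyte markers passed in limma. Their mean log2 level was 6.67 to 6.86 on the shPARP2 arrays and 6.78 to 6.81 on the scPARP2 arrays, and 5 of the 7 lay below the median of all probe sets. Osteoclasts and erythroid cells are rich in Car2, and none of 6 osteoclast or 6 erythroid markers passed. The osteoclast list averaged 6.37 to 6.61 in shPARP2 and 6.57 to 6.60 in scPARP2 cells, and the erythroid list 6.29 to 6.49 in shPARP2 and 6.36 to 6.42 in scPARP2 cells. Of 6 macrophage and leukocyte markers, Cd68 alone passed, at a log2 difference of -0.72 (adjusted p = 0.00119), and none of 6 epithelial markers did. The first list averaged 6.36 to 6.57 in shPARP2 and 6.60 to 6.62 in scPARP2 cells, and the epithelial list 6.81 to 7.04 in shPARP2 and 6.86 to 7.03 in scPARP2 cells. At an unadjusted p under 0.05, 0 adipocyte, osteoclast, erythroid or epithelial markers passed either. These arrays have no true zero, so a low level cannot be called absence.

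Bicarbonate made or used by carbonic anhydrases crosses membranes on SLC4 transporters, of which Slc4a4 had the largest difference. It encodes the electrogenic sodium-bicarbonate cotransporter. Slc4a4 read 6.44, 6.19 and 6.35 in shPARP2 cells, against 8.93, 8.85 and 8.78 in scPARP2 cells, a log2 difference of -2.53 (adjusted p = 3.62e-05) or a signal 5.76-fold higher in scPARP2 cells. Of the 9 measured SLC4 genes, 2 were higher, 1 was lower and 6 did not pass, with a median log2 difference of 0.02. The higher ones were the anion exchangers Slc4a2 (0.47, adjusted p = 0.00607) and Slc4a3 (0.27, adjusted p = 0.0291), the call of the second being lost without shPARP2 replicate 1 or 3 or any 1 scPARP2 array. Of 11 SLC26 anion exchangers, 1 was higher, Slc26a6 (0.24, adjusted p = 0.0476), a call that was lost without any 1 array, after centring (adjusted p = 0.0670) and with a trended, robust variance (adjusted p = 0.0618).

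Proton-coupled monocarboxylate transporters carry lactate together with a proton, and 2 of the 6 genes of the list were lower and 0 higher in limma, with a median log2 difference of -0.12. At an unadjusted p under 0.05, 1 was higher, a transporter. No transporter gene of the list passed, and the 2 lower genes encode chaperones. Emb, which encodes a chaperone of these transporters, had a log2 difference of -0.86 (adjusted p = 0.00462), and Bsg, a second chaperone, one of -0.25 (adjusted p = 0.0358). The Bsg call was lost after centring (adjusted p = 0.114) and without any 1 array other than shPARP2 replicate 2. Of the gas and water channels, Aqp1 was lower (-0.49, adjusted p = 0.00509) and Aqp5 higher (0.36, adjusted p = 0.0200), and 4 of 6 did not pass. The Aqp5 call was lost without shPARP2 replicate 1 or any 1 scPARP2 array. Of 8 bicarbonate and proton sensors, none passed in limma and 1, Asic1, had an unadjusted p under 0.05, the smallest adjusted p being 0.113 for this proton-gated channel and 0.192 for Asic2.

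Carboxylases and carbamoyl phosphate synthetases use bicarbonate as a substrate. Of 9 such genes, 2 were higher in shPARP2 cells, 4 were lower and 3 did not pass, with a median log2 difference of -0.23. The carbamoyl phosphate synthetases were among those that did not pass. Pcx, pyruvate carboxylase, read 10.03, 10.03 and 10.18 in shPARP2 cells, against 11.48, 11.46 and 11.48 in scPARP2 cells, a log2 difference of -1.40 (adjusted p = 0.000125). Mccc1 and Mccc2, the subunits of methylcrotonyl-CoA carboxylase, had log2 differences of -0.83 (adjusted p = 0.00228) and -0.80 (adjusted p = 0.00209). The cytosolic acetyl-CoA carboxylase Acaca was higher, at 0.94 (adjusted p = 0.000525), as was Pccb, a subunit of propionyl-CoA carboxylase, at 0.43 (adjusted p = 0.00621), while its other subunit Pcca was the fourth lower gene at -0.36 (adjusted p = 0.0224). The Pcca call was lost after centring (adjusted p = 0.0525), without shPARP2 replicate 1 and without any 1 scPARP2 array (adjusted p = 0.0515 to 0.0973 over these omissions).

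Genes of the hypoxia-inducible factor system and its targets, which hold neither Car9 nor Car12 here, moved in both directions. Of 17 genes, 4 were higher, 1 was lower and 12 did not pass, with a median log2 difference of 0.11. The higher ones were Pdk1 (0.90, adjusted p = 0.0211), an inhibitor of pyruvate dehydrogenase, Ldha (0.53, adjusted p = 0.00396), P4ha1 (0.36, adjusted p = 0.0147) and Pgk1 (0.29, adjusted p = 0.0272). The calls of Pdk1, P4ha1 and Pgk1 were lost without any 1 scPARP2 array, and that of Pdk1 also without shPARP2 replicate 1. Adm, which encodes a vasodilator peptide, was lower, at -1.08 (adjusted p = 0.000562). The 12 that did not pass had log2 differences between -0.13 and 0.24.

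**Figure D4:**
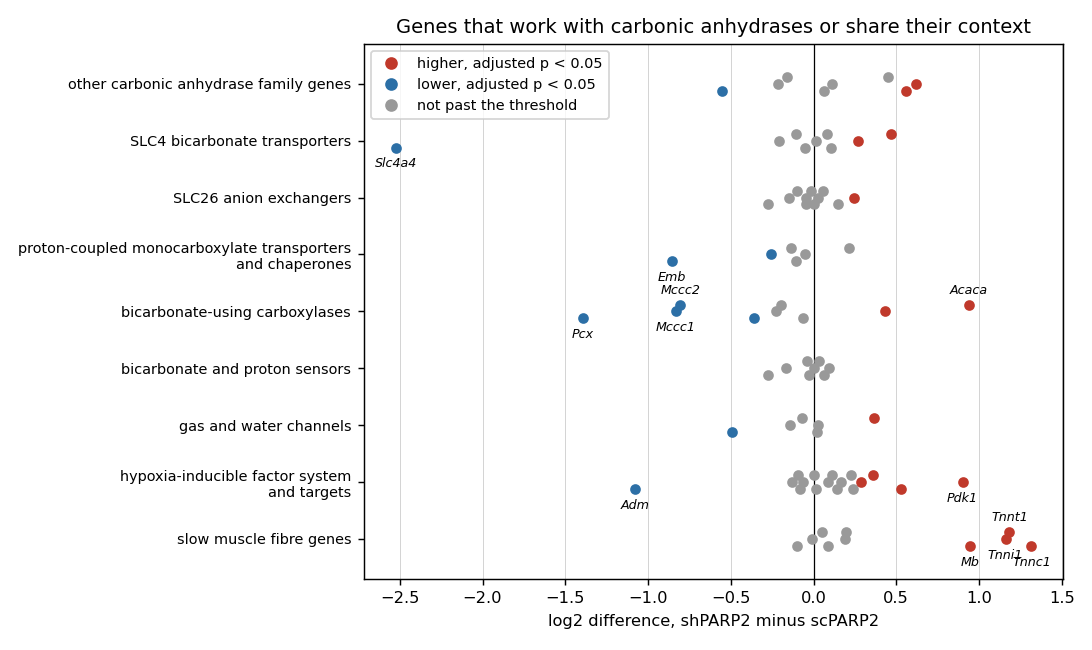
Log2 difference, shPARP2 minus scPARP2, of each measured gene of the lists that work with carbonic anhydrases or share their context, 1 row per list. Red points passed the limma test as higher, blue points as lower and grey points did not pass, and Slc4a4 at -2.53 is the lowest.

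Over these lists together, 84 of 86 genes were measured, of which 16 were higher and 10 were lower. Over all 19938 genes, 12.4% were called higher and 11.6% lower, shares that also belong beside the count of each list. As the lists were chosen with earlier results of these data known, nothing is read from these counts. Leaving out scPARP2 replicate 1, 2 or 3 gave 8 higher genes each time.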

How the data were processed

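Total RNA from 3 shPARP2 and 3 scPARP2 samples was hybridized to 6 arrays. The authors deposited log2 expression values, for which the submitters' processing notes name RMA, with its version and the array library not given in the sources used here. RMA corrects background and normalizes across arrays, which compresses the differences of dim probe sets. A column per sample was mapped by its label, and 0 columns belonged to other samples. Genes were named from the platform annotation: 21789 probe sets name 1 gene, 1621 name several and 12146 are not named here.

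A limma 3.58.1 model without a covariate was fitted in R 4.3.3 to the deposited log2 values of both lines, with Benjamini-Hochberg adjustment over 35556 probe sets and a threshold of 0.05. The script was tested on simulated data. Motifs were searched with Python 3.11.15 and figures drawn with matplotlib 3.10.9. The genes and lists were chosen with earlier results of these data known. Named were all 10 genes, the other family genes, Parp2, up to 5 genes with the largest difference among those past the test in each further list (or the 2 of smallest p if none did), the 3 genes nearest in profile to Car3 and to Car2, and defining cell type markers such as Myod1. Pcca, Myf5, Myog, Vcam1, Cd68 and the genes that flank or overlap the 10 were named outside this rule, after their values were seen. The alternatives for these, Myod1 and the nearest genes were added after seeing the data. The slow muscle fibre genes that did not pass were also named outside the rule after their values were seen, without alternatives. Alternatives were quantile normalization, centring, a filter at the 40th percentile, array weights and a trended robust variance. A stricter threshold of 0.01, a 1.5-fold change, leaving out each array and a block for the replicate number were also run. Averaging the probe sets of a gene was run for the 10 genes only. As each has 1 probe set that names only that gene, averaging could not change their values. Acaca, Slc4a3, Pgk1, Aph1a, Trabd2b and Sytl5 have more than 1 such probe set, and only the brightest of each was read. Precision is limited by the number of arrays, which give no read depth.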

Additional observations from a re-analysis of the deposited data

How the results depend on the processing

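Over all probe sets, the higher count (3345) was 1736 at an adjusted p under 0.01 and 1458 with a 1.5-fold change, and the lower count (3249) was 4941 with array weights, 1589 at an adjusted p under 0.01 and 1327 with a 1.5-fold change. Leaving out 1 array gave 1842 to 3449 higher and 1761 to 3782 lower probe sets, 3 to 5 higher and 2 to 3 lower carbonic anhydrase genes, 8 to 15 higher and 8 to 10 lower list genes, and a Parp2 log2 difference of -1.15 to -1.01. With a 1.5-fold change, 2 of the 10 genes were higher. Of the list genes, 8 were higher at an adjusted p under 0.01, and 7 were higher and 6 lower with a 1.5-fold change. The same-numbered arrays of the lines are not tied by any source, and their deviations correlated at -0.05, 0.09 and 0.01. Entered as a replicate block, the number gave 2455 higher and 2338 lower probe sets, 4 higher and 3 lower of the 10 genes, and 12 higher and 8 lower list genes, without the calls of Slc4a3, Slc26a6, P4ha1 and Pgk1 among the higher and Bsg and Pcca among the lower genes; Parp2 stayed at -1.07 (adjusted p = 0.00506).

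Of 63 named genes recomputed, 41 kept direction and call in every setting run at the same threshold, Car2, Car3, Car6, Car8 and Car9 among them. Many of the 63 were named for large differences in this same comparison, or after their values were seen. The same count was not made over all genes, and nothing is read from it. The sign turned for Car4 (-0.04 to 0.17 over the omissions, -0.0409 without shPARP2 replicate 1 and -0.00457 without replicate 3), for Car14 (0.00654 after quantile normalization, 0.00767 after centring, -0.0685 to 0.0502 over the omissions), for Car5a (-0.00815 to 0.13 over the omissions), for Myod1 (-0.479 to 0.171 over the omissions) and for Rbis (-0.356 to 0.00376 over the omissions, 0.0650 with array weights), none of which was called. Car4, Car12 and Car14 fell under the filter on dim probe sets. The cause of these changes was not tested.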

Other observations

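The genes whose 6 centred values lay nearest to those of Car3 were Trabd2b (log2 difference 3.46), Tpsab1 (3.11) and Il6 (3.07), at root mean square distances of 0.36, 0.50 and 0.53. Nearest to Car2 were Gstm1 (-2.25), Sytl5 (-2.23) and Zim1 (-2.19), at 0.14, 0.15 and 0.15. The nearest genes to Car3 lay farther from it than those to Car2 did from Car2, over these 6 arrays. No other gene had a log2 difference as large as that of Car3, so its larger distances partly restate its rank.

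Within the silenced line, shPARP2 replicate 2 was the highest array in 7 of the 10 carbonic anhydrase genes and in 34.3% of all genes. Replicate 3 was the lowest in 6 of the 10 and in 27.7% of all genes. The SD was larger in shPARP2 than in scPARP2 cells in 6 of the 10 genes and in 78.4% of all genes.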
